A study of Mus musculus with 15 samples.

Results

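The contacts of the Pparg gene at the first days of fat cell formation were set against those at day 0. They were read by 4C-seq (circular chromosome conformation capture followed by sequencing). In this assay DNA ends that are close in the fixed nucleus are joined, and the sites found joined to a chosen bait are counted. The comparison used 3 of the 15 samples of the series and 6 of its 27 libraries, namely the Pparg bait at day 1 (2 libraries), at day 2 (2 libraries) and at day 0 (2 libraries). The samples were chosen by bait and day alone, and no measured value entered the choice.

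All 3 groups were 3T3-L1, a clonal mouse fibroblast line that turns into fat cells under a hormone cocktail. Cells of the day 1 and day 2 groups, which the labels call an intermediate stage, had received 10% FCS (fetal calf serum) with 1 µM dexamethasone, 0.5 mM 3-isobutyl-1-methylxanthine and 1 µg/ml insulin from day 0. At day 2 the medium is replaced by one with FCS and 1 µg/ml insulin, and the labels do not say whether the day 2 cells were taken before or after that. Cells of the day 0 group, labelled preadipocytes, were 2 days past confluence and had not yet met the cocktail. In all groups, 10 min in 2% formaldehyde fixed the chromatin, HindIII cut it, and its ends were joined. DpnII then cut the products once more, and they were closed into circles and amplified with bait primers. The replicate numbers 1 and 2 stand in the deposited names, and nothing ties them to separate cultures. The p-values therefore reflect only the spread of these libraries, which may be technical.

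Pparg encodes the nuclear receptor that directs fat cell differentiation. In 3T3-L1 cells its expression is low before induction and climbs over the first days, after the early factors C/EBPβ and C/EBPδ, which the hormones induce, have bound near it. Contacts of a gene fall off steeply with distance along its chromosome, and farther out they rise and fall in blocks, since active, gene-rich chromatin and inactive, gene-poor chromatin tend to lie apart in the nucleus. Expression was not measured in these libraries.

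The bait site lay at 115369246 to 115369251 bp of chromosome 6 (mm9), and it was the site with the most reads in each of the 6 libraries. In the gene order of the GRCm38.p6 annotation, another build, the nearest genes on the low-coordinate side of Pparg are Timp4, which encodes an inhibitor of matrix metalloproteinases, Syn2, which encodes a synaptic vesicle protein, and Tamm41. Windows farther away are given by position in mm9, without the genes in them. The libraries held 165153 to 2551475 reads, of which 110322 to 2040636 remained after the sites within 10 kb of the bait were left out, and the 3 smallest totals belong to the libraries numbered 2. In the libraries numbered 2 the bait site itself took 29.2% of the reads on day 1 and 20.7% on day 2, against 5.83% on day 0. In those numbered 1 it took 11.6% and 7.72%, against 9.14% on day 0.

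Far from the bait, the contacts of Pparg along chromosome 6 were spread differently on days 1 and 2 than on day 0. Reach beyond 1 Mb is given here relative to the average of that far part in the same library. A series of windows 4 to 20 Mb away on the low-coordinate side lay below this average on day 0. On that scale it was reached more often on days 1 and 2, and so were 5 windows on the high-coordinate side. Some windows over 60 Mb away on the low-coordinate side, which the bait had reached at or above the average on day 0, were reached less often. The windows within 1 Mb of Pparg had overlapping levels in the groups.

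The measure behind this statement is the number of captured sites, which are HindIII sites with at least 1 read, so that amplification of a site by PCR does not raise it. The captured share of a window of 1 Mb was divided by the captured share of all 144 windows lying over 1 Mb from the bait in the same library, and the quotient is called its relative capture. A value of 1 is the average of the far chromosome. The division removes a library's total of captured sites only in part, since a window cannot have more captured sites than it holds. That limit lies at a lower relative capture in libraries with more captured sites. In edgeR's quasi-likelihood test 23 of the 144 windows passed at an adjusted p of 0.05, which is 16.0% of those tested. Of these, 17 (11.8%) were higher on days 1 and 2 and 6 (4.17%) were lower. The excess of higher over lower calls depended on the fit: with the replicate number as a block 19 were higher and 19 lower, and at equal depth 19 and 11 (edgeR). DESeq2 called 0 of them, with a smallest adjusted p of 0.0511 and with 14 windows at an unadjusted p under 0.05, 13 of them higher.

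**Figure D1:**
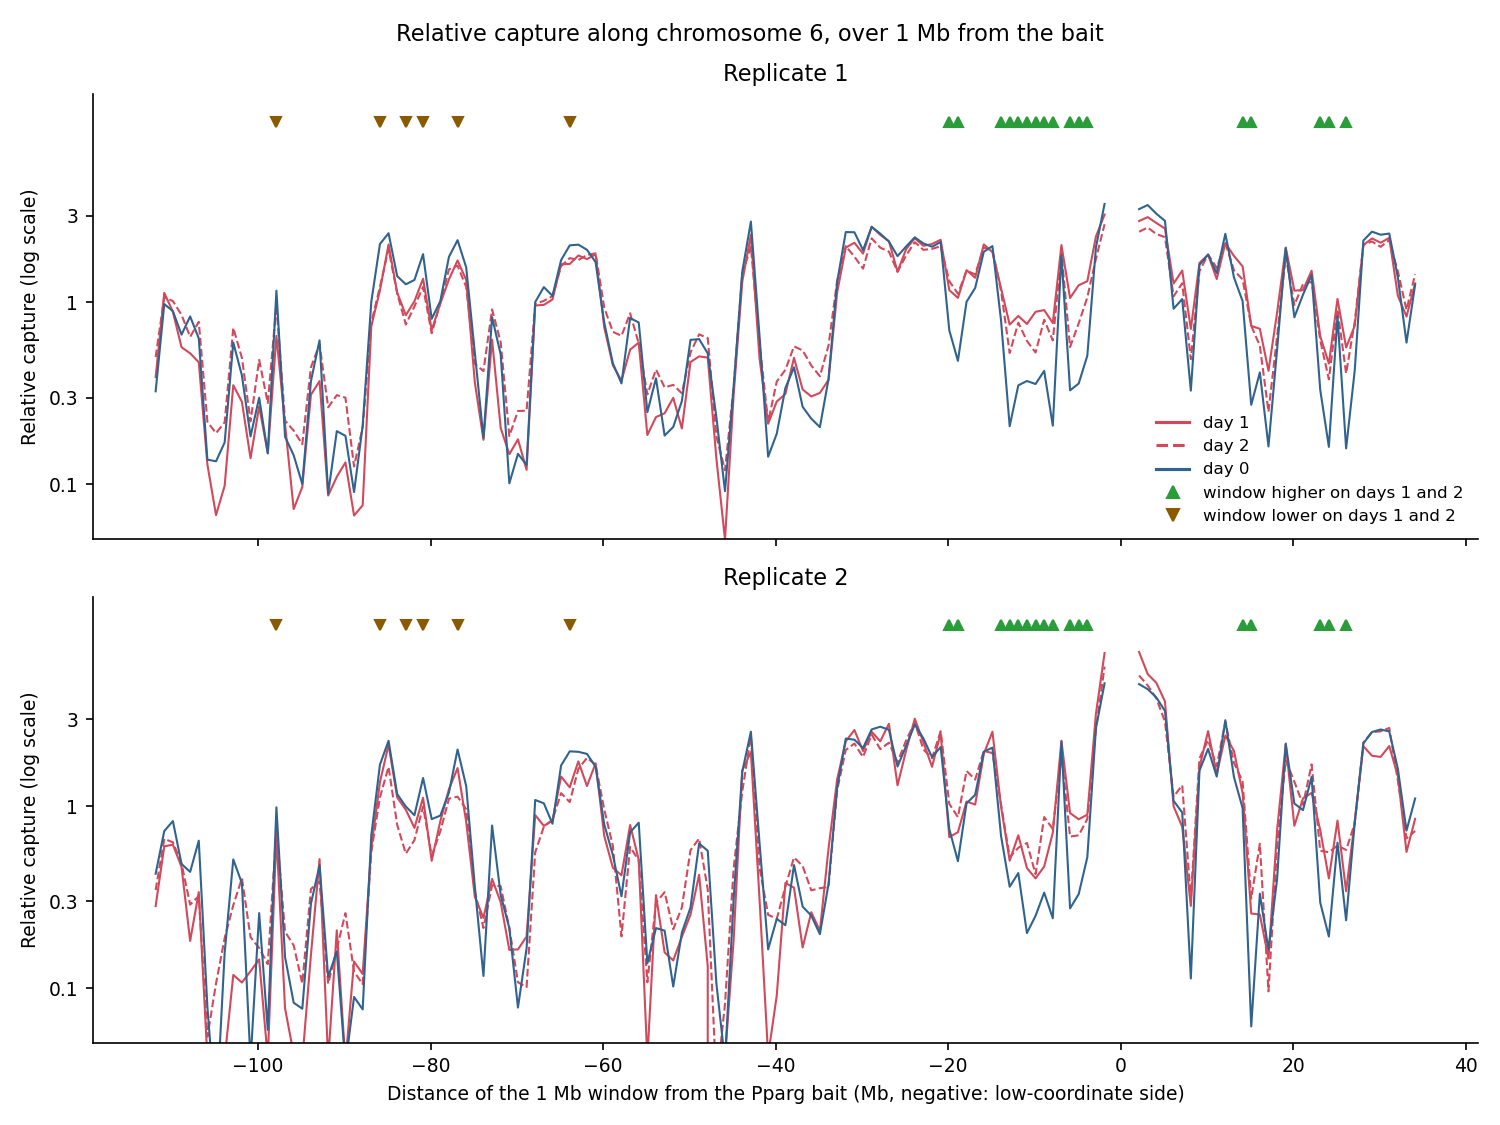
Relative capture (log scale) of 144 windows of 1 Mb along chromosome 6 against distance from the Pparg bait, for libraries numbered 1 (top) and 2 (bottom); red lines are day 1 (solid) and day 2 (dashed), blue lines are day 0, triangles mark windows that passed edgeR's test, and values under 0.05 fall below the axis. In the windows marked higher 4 to 20 Mb away on the low-coordinate side the red lines lie above the blue line, apart from day 1 of replicate 2 in the farthest, and at the peak between the marks, at 108 to 109 Mb, they lie near it.

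The window at 110 to 111 Mb, about 5 Mb from the bait, had the smallest p. Its relative capture was 1.24 and 0.846 in the day 1 libraries and 0.767 and 0.691 in the day 2 libraries, against 0.358 and 0.328 in the day 0 libraries. All 4 early libraries lay above both day 0 libraries, and the spread within day 0 was small. The log2 difference was 1.38 ± 0.21 (SE; edgeR adjusted p = 6.28e-05). In numbers of sites, 128 and 21 of the 338 HindIII sites of the window were captured in the day 1 libraries and 92 and 26 in the day 2 libraries, against 32 and 17 in the day 0 libraries.

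The window at 107 to 108 Mb, about 8 Mb away, had the largest log2 difference of the 17, at 1.63 ± 0.28 (SE; edgeR adjusted p = 7.99e-05). Its relative capture was 0.770 and 0.714 on day 1 and 0.617 and 0.748 on day 2, against 0.210 and 0.242 on day 0. Here the 4 early libraries sat close together, at a mean of 0.712 ± 0.0673 (SD, n = 4), against 0.226 ± 0.0223 (SD, n = 2). Next to the peak at 108 Mb, the window at 109 to 110 Mb had values of 1.06 and 0.915 on day 1 and 0.568 and 0.679 on day 2, against 0.328 and 0.274 on day 0. Its day 1 libraries lay above its day 2 libraries, and all 4 lay above day 0, and the log2 difference was 1.32 ± 0.22 (SE, edgeR adjusted p = 7.99e-05). At 111 to 112 Mb the values were 1.31 and 0.897 on day 1 and 1.07 and 0.849 on day 2, against 0.509 and 0.523 on day 0. It had no overlap either, and its log2 difference was 1.06 ± 0.18 (SE, edgeR adjusted p = 7.99e-05).

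These 4 windows passed in each of the 6 fits that left out 1 early or day 0 library, and they were the only 4 of the 23 that did. The count of 23 was 7 without day 0 replicate 1, 11 without day 0 replicate 2 and 9 without day 1 replicate 1.

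**Figure D2:**
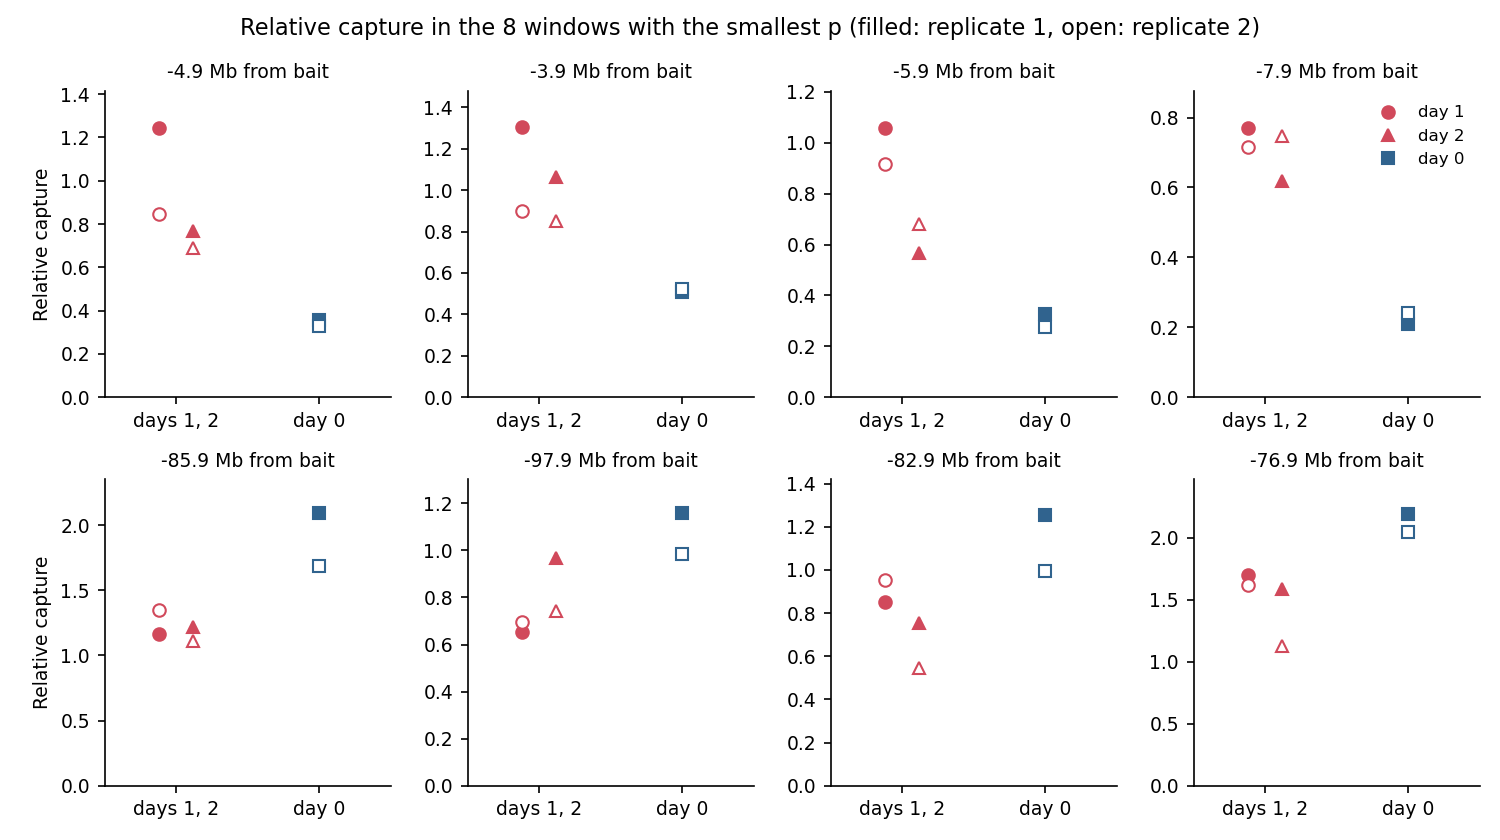
Relative capture in the 4 windows with the smallest p among those higher (top row) and lower (bottom row) on days 1 and 2, with days 1 and 2 left and day 0 right in each panel; circles are day 1, triangles day 2, squares day 0, filled for replicate 1 and open for replicate 2, and titles give the distance from the bait. The 8 windows were picked from passing windows in which the 4 early and the 2 day 0 libraries do not overlap, so that separation follows from the choice.

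The 17 higher windows lay in a few stretches. On the low-coordinate side, 12 of the 24 windows from 1 to 25 Mb away were higher, and none of these 24 was lower. They began at 95 and 96 Mb, at each step from 101 to 107 Mb, and from 109 to 111 Mb. On the high-coordinate side 5 of 33 windows were higher, those beginning at 129, 130, 138, 139 and 141 Mb. None of the 87 windows over 25 Mb away on the low-coordinate side was higher, and the 6 lower windows were all among them. The median log2 difference was 0.51 over the 24 near windows of the low-coordinate side, 0.13 over the high-coordinate side, -0.12 over the 87 distant windows and -0.01 over all 144.

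Over the 17 windows the log2 differences ran from 0.46 at 129 to 130 Mb to 1.63, with a median fold of 2.08. In 15 of them, every early library lay above every day 0 library, while 13.9% of all 144 windows did so. The exceptions lay at 95 to 96 Mb and 130 to 131 Mb. At 130 to 131 Mb the relative capture was 0.743 and 0.257 on day 1 and 0.744 and 0.311 on day 2, against 0.274 and 0.0615 on day 0, and each early library exceeded the day 0 library of its own number. Compared within a replicate number, the mean of days 1 and 2 lay above day 0 in all 17 windows for number 1 and in all 17 for number 2. The same libraries chose these windows, so the shared direction is a description and carries no test.

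Most of the higher windows lay in troughs of the day 0 profile. The 17 higher windows had a median relative capture of 0.313 on day 0, against 0.806 for the 121 windows that did not pass. The day 0 values entered the calls, so part of this gap can follow from the choice. Peaks of the day 0 profile stand inside and beside the higher stretch, and 3 of them had log2 differences close to 0. The window at 108 to 109 Mb, which interrupts the run of higher windows, had a relative capture of 2.06 and 2.28 on day 1 and 1.87 and 1.92 on day 2, against 1.81 and 2.26 on day 0. The groups overlap, and its log2 difference was -0.04 ± 0.18 (SE; edgeR adjusted p = 0.965). On either flank are the peaks at 100 to 101 Mb and 112 to 113 Mb. Their log2 differences were -0.05 ± 0.18 and 0.00 ± 0.24 (SE; edgeR adjusted p = 0.951 and 0.991). Peaks have less room for a rise than troughs in the libraries numbered 1, which captured many sites. The day 0 library of that number captured 83.3% of sites 1 to 3 Mb away on the low-coordinate side. Those of days 1 and 2 captured 87.4% and 88.3% there. That band takes in part of the peak at 112 to 113 Mb, but not the peaks at 100 to 101 Mb and 108 to 109 Mb. Whether limited room held the peaks level was not tested.

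So that ranking and change rest on different libraries, the windows were ranked by day 0 capture in the libraries of 1 replicate number and their change was read in those of the other. Within 25 Mb of the bait on either side, 12 windows were among the 48 lowest of the 144 in the day 0 ranking of number 1, and 11 of these 12 were higher in number 2, with a median log2 change of 1.24. Ranked in number 2 instead, 11 were among the 48 lowest, and all 11 were higher in number 1, with a median of 0.97. Of the windows within 25 Mb that ranked between the 48 lowest and the 48 highest, 13 of 14 and 15 of 15 were higher too, with smaller medians of 0.31 and 0.56. Over 25 Mb away the windows among the 48 lowest changed less, with medians of 0.21 over 36 windows and 0.25 over 37 windows. Windows among the 48 highest had medians of 0.10 and -0.05 within 25 Mb and of -0.22 and -0.20 over 25 Mb away. The cut at 25 Mb takes in all 12 higher windows of the low-coordinate side, which were called from both numbers together. The split by number therefore covers the ranking and not the choice of distance. These medians describe the same 6 libraries and carry no test.

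The 6 lower windows began at 17, 29, 32, 34, 38 and 51 Mb, from 64 to 98 Mb from the bait. They had a median relative capture of 1.76 on day 0, with 2 of them, at 17 and 32 Mb, close to the average of 1. Here too the day 0 values entered the calls, so a high level can follow in part from the choice. At 29 to 30 Mb the values were 1.16 and 1.35 on day 1 and 1.22 and 1.11 on day 2, against 2.09 and 1.69 on day 0. Both day 0 libraries lay above all 4 early ones, and the log2 difference was -0.71 ± 0.14 (SE, with an edgeR adjusted p of 0.000543). At 38 to 39 Mb the values were 1.70 and 1.62 on day 1 and 1.59 and 1.13 on day 2, against 2.20 and 2.05 on day 0. The log2 difference was -0.50 ± 0.15 (SE, with an edgeR adjusted p of 0.0156).

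At 32 to 33 Mb they were 0.850 and 0.955 on day 1 and 0.756 and 0.548 on day 2, against 1.26 and 0.995 on day 0. That log2 difference was -0.59 ± 0.17 (SE; edgeR adjusted p = 0.0133), and day 1 replicate 2 came close to day 0 replicate 2. At 17 to 18 Mb they were 0.655 and 0.696 on day 1 and 0.966 and 0.743 on day 2, against 1.16 and 0.984 on day 0. That difference was -0.52 ± 0.15 (SE; edgeR adjusted p = 0.0121), with day 2 replicate 1 just below day 0. All 6 windows were without overlap, as were 13.2% of all windows in that direction. None of the 6 passed in every fit that left out 1 library, and without day 0 replicate 1 none of the windows of chromosome 6 passed as lower.

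Taken as sets, the windows show the size of the shift in each library, as a description, since the same values chose them. The 17 higher windows together had a relative capture of 0.941 and 0.660 in the day 1 libraries and 0.784 and 0.725 in the day 2 libraries, against 0.414 and 0.390 in the day 0 libraries. All 6 values lie below 1, and those of days 1 and 2 lie closer to it. In captured sites, these windows had 1645 and 278 on day 1 and 1597 and 463 on day 2, against 628 and 343 on day 0. Day 1 replicate 2 thus had fewer of their sites than day 0 replicate 2, and its rise is relative only. In share of the reads over 1 Mb away, the same windows held 8.28% and 7.61% on day 1 and 7.24% and 7.27% on day 2, against 3.44% and 3.77% on day 0. The 6 lower windows had a relative capture of 1.20 and 1.14 on day 1 and 1.24 and 0.916 on day 2, against 1.73 and 1.49 on day 0. They held 3.69% and 5.12% of those reads on day 1 and 3.71% and 2.97% on day 2, against 6.86% and 5.88% on day 0.

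The total yield of captured sites moved in opposite ways in the 2 replicate numbers. Among libraries numbered 1, chromosome 6 had 15043 captured sites on day 1 and 17390 on day 2, against 13158 on day 0. Among those numbered 2 it had 4043 and 5898, against 7884. When every library was thinned to 110322 reads, the higher windows had a relative capture of 0.820 and 0.660 on day 1 and 0.698 and 0.654 on day 2, against 0.326 and 0.343 on day 0. At that equal depth 16 of the 17 higher and all 6 lower windows passed edgeR's test.

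Counted as reads in place of captured sites, the difference was less certain for single windows. Of the 17 higher windows 16 kept their sign and 5 passed, and of the 6 lower windows 6 kept their sign and 0 passed (edgeR). The window at 96 to 97 Mb had the other sign, with 2496 and 49 reads on day 1 and 1919 and 372 on day 2, against 2036 and 263 on day 0. Its captured sites had risen, by 1.02 ± 0.19 (SE) on the log2 scale with an edgeR adjusted p of 0.000271, while its log2 difference in reads was -0.14 (edgeR adjusted p = 0.866).

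The changes of the 2 replicate numbers, which share no library, can be set side by side over all windows. The log2 change of captured sites had a Pearson correlation of 0.566 and a Spearman correlation of 0.472 across the 144 windows. The windows lie on 1 chromosome and neighbours resemble each other, so they are not independent points. At least a 2-fold rise in both numbers was seen in 5 windows, and a 2-fold change in opposite directions in 0. In narrower windows the numbers had less in common. The correlation was 0.158 for reads in 1376 windows of 100 kb of chromosome 6, where 131 windows were at least 2-fold up in both numbers, 97 down in both and 130 opposite.

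**Figure D3:**
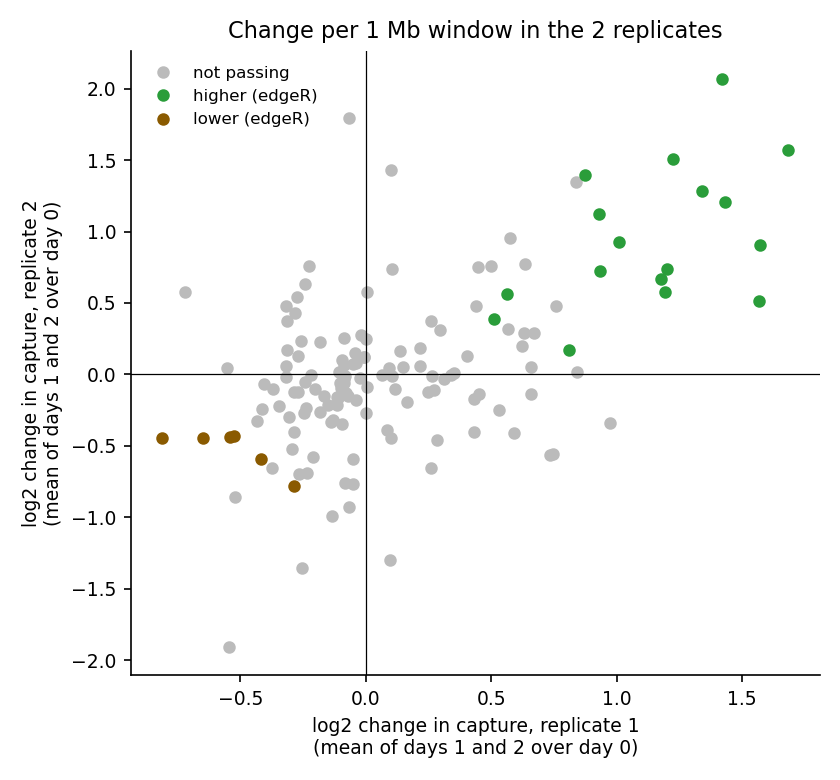
Log2 change in captured sites from the mean of days 1 and 2 over day 0 in libraries numbered 1 (horizontal) and 2 (vertical), 1 point for each of 144 windows of 1 Mb; green points passed edgeR's test as higher and brown points as lower, grey points did not pass. All 17 green points lie above 0 on both axes and all 6 brown points below 0 on both. The same libraries chose these windows, so their signs carry no test.

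Days 1 and 2 were also set against day 0 on their own, with the same 2 day 0 libraries in both comparisons. On day 1, 20 windows passed (13.9%), 18 higher (12.5%) and 2 lower (1.39%). On day 2, 15 windows passed (10.4%), 11 higher (7.64%) and 4 lower (2.78%). With the replicate block day 1 had 21 higher and 11 lower and day 2 had 16 higher and 21 lower, and at equal depth day 2 had 13 of each (edgeR). By DESeq2 the counts were 3 on day 1 and 0 on day 2. Without day 0 replicate 1, day 1 had 6 windows and day 2 had 0, and without day 0 replicate 2 they had 13 and 7. Without day 1 replicate 1, day 1 had 3 and, without day 2 replicate 1, day 2 had 9. Without day 1 replicate 2, which enters the day 2 test through the shared spread, day 2 had 10.

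The window at 110 to 111 Mb had a log2 difference of 1.75 ± 0.23 (SE) on day 1 and 1.00 ± 0.24 (SE) on day 2 (edgeR adjusted p = 4.05e-06 and 0.00707). For the window at 107 to 108 Mb they were 1.80 ± 0.31 and 1.46 ± 0.31 (SE; edgeR adjusted p = 0.000104 and 0.00254). Both windows were thus higher on each day. The window at 96 to 97 Mb led the day 2 list, with 1.00 ± 0.21 (SE) on day 2 and 1.04 ± 0.22 (SE) on day 1 (edgeR adjusted p = 0.00254 and 0.00152). Counted as reads its day 2 difference turned to -0.11.

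Among the lower windows, those at 32 to 33 Mb and 34 to 35 Mb passed on day 2. Their log2 differences were -0.83 ± 0.20 and -0.64 ± 0.17 (SE; edgeR adjusted p = 0.00702 and 0.0124). On day 1 they had -0.35 ± 0.20 and -0.34 ± 0.17 (SE; edgeR adjusted p = 0.380 and 0.287). Whether day 2 differed from day 1 in these windows was not tested.

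The levels of the same windows in the other Pparg libraries are given as a description. The windows were chosen partly by their day 0 values, so a library's place against day 0 carries no test. On day 6 the 17 higher windows together had a relative capture of 0.726 and 0.616, and in the 1 library of a B lymphocyte line they had 1.30. The 6 lower windows had 0.947 and 0.917 on day 6 and 0.595 in the B cell library.

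Reads were then summed by distance from the bait in 9 bands on each side, as shares of all chromosome 6 reads. The early groups and day 0 did not overlap in 5 of the 18 bands. Days 1 and 2 were higher in 4 of the 18 (22.2%) and lower in 1 (5.56%). The band from 3 to 10 Mb on the low-coordinate side differed most in ratio. It held 1.35% and 1.30% of the reads on day 1 and 1.19% and 1.21% on day 2, against 0.755% and 0.892% on day 0. Its mean was 1.53 times that of day 0, with ratios of 1.68 and 1.41 within numbers 1 and 2. In the captured share of its sites at equal depth the ratios were 1.95 and 1.01, so number 2 showed almost no rise in that measure. The adjoining band from 10 to 20 Mb held 1.74% and 1.85% on day 1 and 2.03% and 2.12% on day 2, against 1.46% and 1.57% on day 0. Its ratios in captured share at equal depth were 1.64 and 0.850, so number 2 fell in that measure. Both bands lie where the higher windows do.

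Beyond 20 Mb on the low-coordinate side the share was 11.7% and 14.3% on day 1 and 14.2% and 14.3% on day 2, against 14.7% and 15.9% on day 0. Closer in, the band from 100 to 250 kb was higher on both sides. On the low-coordinate side it held 17.4% and 15.9% on day 1 and 16.8% and 16.3% on day 2, against 15.3% and 14.4% on day 0. On the high-coordinate side it held 4.72% and 4.54% on day 1 and 4.44% and 3.99% on day 2, against 3.78% and 3.86% on day 0.

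For 4 early and 2 day 0 libraries the exact permutation test, two-sided, cannot give less than p = 0.133. These bands reached it, at an adjusted p of 0.480 over 18 bands. At equal depth, the captured share of sites overlapped between the groups in all 18 bands.

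**Figure D4:**
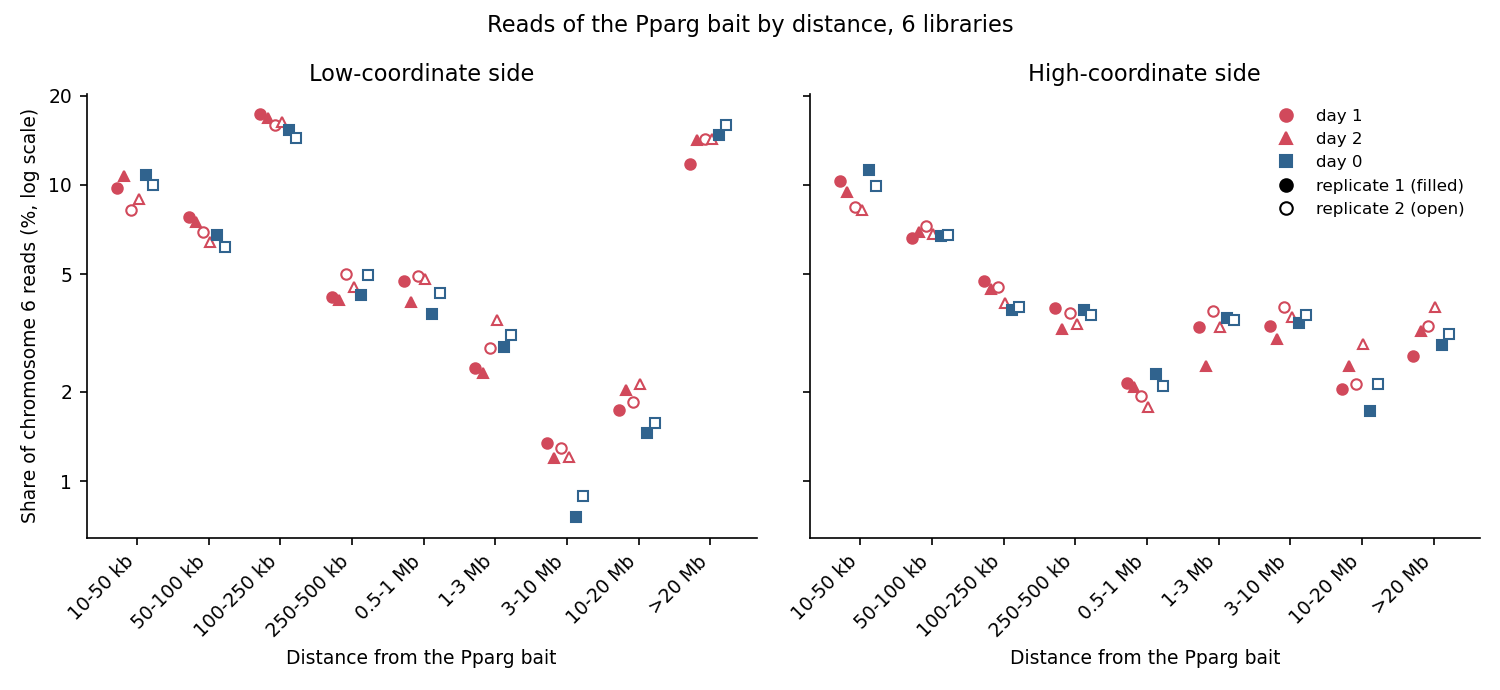
Share of chromosome 6 reads (%, log scale) in 9 distance bands on each side of the Pparg bait; red circles are day 1, red triangles day 2 and blue squares day 0, filled for replicate 1 and open for replicate 2. In the band from 3 to 10 Mb on the low-coordinate side the early libraries lie between 1.19% and 1.35%, above both day 0 libraries.

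Within 1 Mb of Pparg, no window of the profile separated the groups. Reads are given as CPM, edgeR's normalised counts, which scale each library by its chromosome 6 reads times a factor from edgeR's TMM normalisation. In all 21 windows of 100 kb the groups overlapped, with log2 differences from -0.32 to 0.21 and a smallest adjusted p of 0.997 (edgeR), which does not show that the levels were equal. The window from 115.2 Mb, the highest on the low-coordinate side after that of the bait, had 121238 ± 12451 CPM (SD, n = 4) on days 1 and 2, against 114637 ± 17978 CPM (SD, n = 2) on day 0. The window from 115.4 Mb, the highest on the other side, had 133451 ± 15828 CPM (SD, n = 4), against 133472 ± 17692 CPM (SD, n = 2). Of the reads within 1 Mb, those on the low-coordinate side made up 61.4% and 61.3% on day 1 and 62.3% and 62.9% on day 2, against 59.5% and 60.3% on day 0. All 4 early libraries lay above day 0 in that share, by 2.06 percentage points on average, at the smallest p the design allows (two-sided exact permutation test, p = 0.133). The groups overlapped in it when captured sites replaced reads, with a difference of 0.914 points, and when the sites within 100 kb of the bait were left out, with 1.35 points (p = 0.533 and 0.267 by the same exact test).

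In chromosome 6 windows of 100 kb, reads gave almost no calls. The spread between replicates was far larger there, with a common dispersion of 0.855 in edgeR's fit, against 0.0249 for captured sites in 1 Mb windows, so that few changes could have passed. For days 1 and 2 together 0 of 1376 windows passed in edgeR (0.0%), with 61 at an unadjusted p under 0.05, and DESeq2 called 10, all higher. On day 1 alone 0 passed (0.0%), with 52 at an unadjusted p under 0.05 and 6 called by DESeq2. On day 2 alone 1 passed (0.0727%), with 69 at an unadjusted p under 0.05, and DESeq2 called 6. Between day 2 and day 1, 0 passed (0.0%), with 51 at an unadjusted p under 0.05, and DESeq2 called 1.

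The window that passed on day 2 lay at 129.7 to 129.8 Mb, inside a higher window of 1 Mb. It had 343 and 1 reads on day 1 and 244 and 129 on day 2, against 0 and 0 on day 0 (edgeR adjusted p = 0.0397 for day 2 and 0.0915 for day 1). Leaving out any 1 library of day 2 or day 0 ended the call. At 107.0 to 107.1 Mb there were 152 and 37 reads on day 1 and 56 and 50 on day 2, against 1 and 0 on day 0, and the test was not passed (edgeR adjusted p = 0.131 for both days together). At 110.4 to 110.5 Mb there were 370 and 11 reads on day 1 and 117 and 10 on day 2, against 0 and 0 on day 0 (edgeR adjusted p = 0.131). All 3 were nearly empty on day 0, with every early library above both day 0 libraries, as in 6.25% of the 1376 windows. Of the 10 windows that DESeq2 called, those at 104.8, 107.0, 109.5, 109.8, 110.4, 129.7 and 141.9 Mb lay inside higher windows of 1 Mb. Those at 22.8, 123.2 and 136.1 Mb did not. Both window sizes rest on the same reads, so the shared place is a description. The 17 higher windows were 11.8% of the 144 windows of 1 Mb. How many of all 1376 windows lie inside the higher windows was not counted.

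On the lower side none passed for days 1 and 2 together. The windows with the smallest p were those at 70.4 Mb, with 1 and 0 reads on day 1 and 1 and 0 on day 2, against 280 and 0 on day 0, and at 26.3 Mb, with 0 reads in the early libraries, against 0 and 10 on day 0 (edgeR adjusted p = 0.894 for each). Each rests on reads of 1 library. The 8 windows over 1 Mb away with the most reads lay from 113.4 to 120.0 Mb. Their log2 differences ran from -0.51 to 0.23, and the only one without overlap was that from 113.4 Mb, at 2128 ± 306 CPM (SD, n = 4), against 3035 ± 357 CPM (SD, n = 2), which did not pass (edgeR adjusted p = 0.989). Of all 1376 windows, 8.28% were lower without overlap.

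The split of reads between chromosome 6 and the other chromosomes did not separate the groups. Chromosome 6 held 80.9% and 76.8% of the reads on day 1 and 74.0% and 74.3% on day 2, against 73.6% and 74.5% on day 0. The groups overlapped, with a difference of 2.49 percentage points (two-sided exact permutation test, p = 0.400). It was 1.01 points without day 1 replicate 1, and 3.89 and 1.08 points within numbers 1 and 2. Reads within 1 Mb made up 68.1% ± 2.76 (SD, n = 4) of chromosome 6 reads on days 1 and 2, against 67.4% ± 1.75 (SD, n = 2) on day 0, which overlapped too (p = 0.800 by the same exact test).

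At equal depth, sites captured on other chromosomes numbered 9099 and 3740 on day 1 and 13181 and 4634 on day 2, against 10982 and 8071 on day 0. Number 1 differed by 158 sites and number 2 by -3884, so the sign depended on the replicate number.

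On other chromosomes, 0 of 1969 windows of 500 kb passed for days 1 and 2 together (0.0%), on day 1 (0.0%) or on day 2 (0.0%) in edgeR, and the unadjusted p was under 0.05 in 87, 77 and 96 of them. DESeq2 called 0 in each. The 2 windows reached most adjoin each other. That at 117.0 to 117.5 Mb of chromosome 10 was captured at 16.5 ± 7.84 times the library mean of other chromosomes on days 1 and 2 (SD, n = 4), against 14.6 ± 5.31 times (SD, n = 2) on day 0. Its neighbour at 116.5 to 117.0 Mb had 11.2 ± 4.20 times (SD, n = 4), against 10.7 ± 4.73 times (SD, n = 2).

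Of the 8 windows captured most, that at 129.0 to 129.5 Mb of chromosome 8 was the only one without overlap, while 4.88% of all 1969 windows were higher without overlap and 6.5% were lower. It had multiples of 6.74 and 10.6 on day 1 and 5.86 and 6.85 on day 2, against 4.80 and 3.65 on day 0, and did not pass (log2 difference 0.56 ± 0.33, SE; edgeR adjusted p = 1.00). The log2 differences of the other 7 ran from -0.16 to 0.12. The window with the smallest p in the lower direction lay at 149.0 to 149.5 Mb of chromosome 5, with 0 and 1 captured sites on day 1 and 4 and 1 on day 2, against 15 and 3 on day 0 (edgeR adjusted p = 0.290). In the higher direction it lay at 40.5 to 41.0 Mb of chromosome 15, with 12 and 1 on day 1 and 11 and 4 on day 2, against 2 and 0 on day 0 (edgeR adjusted p = 0.593). Both changes rest on few sites.

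By whole chromosome, the captured share over the library mean was highest for chromosome 19, next highest for chromosome 11 and lowest for chromosome X in each of the 6 libraries, among the 19 chromosomes compared. Chromosome Y, with 855 HindIII sites of which 0 to 4 were captured, was left out. Chromosome 19 stood at 1.61 ± 0.141 (SD, n = 4) on days 1 and 2, against 1.65 ± 0.110 (SD, n = 2) on day 0. Chromosome X stood at 0.391 ± 0.0686 (SD, n = 4), against 0.412 ± 0.0690 (SD, n = 2). Chromosome 14 was higher without overlap (1 of 19, 5.26%), at 0.880 ± 0.0169 (SD, n = 4), against 0.834 ± 0.0166 (SD, n = 2). Chromosome 8 was lower without overlap (1 of 19, 5.26%), at 1.15 ± 0.0287 (SD, n = 4), against 1.22 ± 0.0428 (SD, n = 2). Both had p = 0.133 in a two-sided exact permutation test, the smallest it can give here, and an adjusted p of 1.00 over 19 chromosomes.

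**Figure D5:**
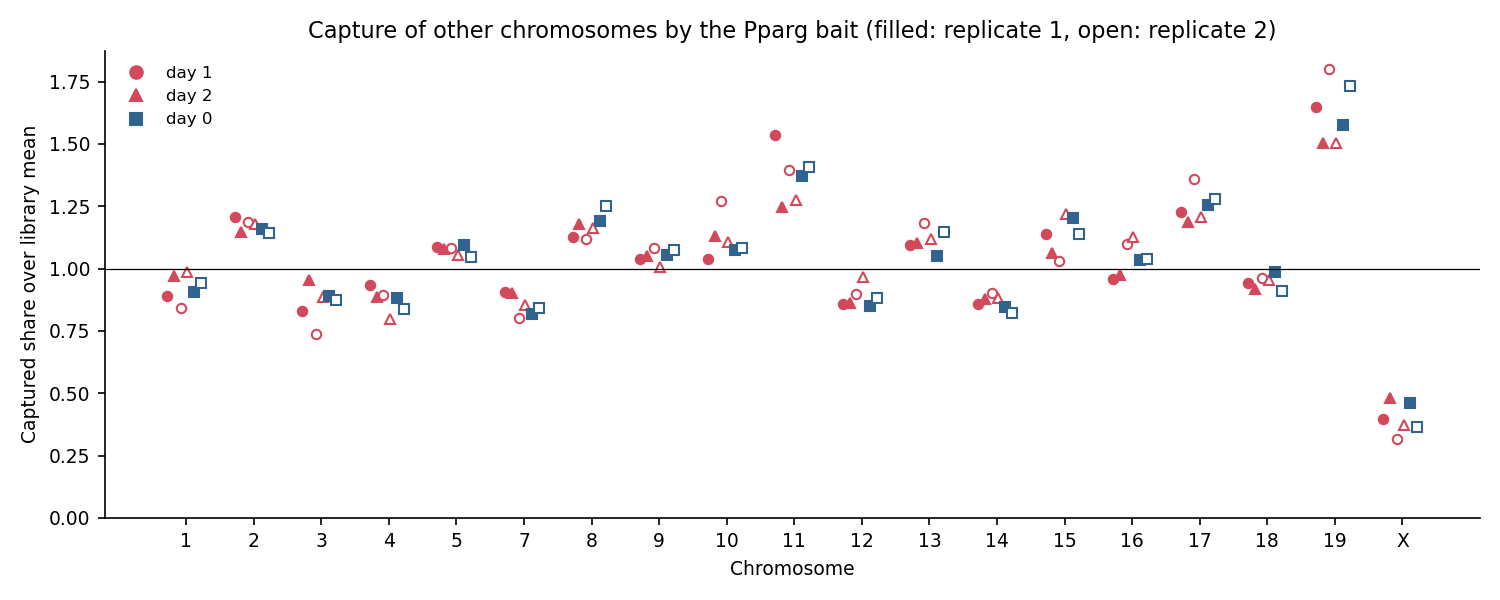
Captured share of each chromosome other than 6 over the mean of all of them in the same library; red circles are day 1, red triangles day 2 and blue squares day 0, filled for replicate 1 and open for replicate 2, and the line at 1 is the library mean. Early and day 0 libraries overlap in 17 of 19 chromosomes, and the differences are small beside those between chromosomes.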

How the data were processed

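The authors deposited, for each library, raw counts of reads at 823355 HindIII sites of mm9, not normalised. Bowtie, with no version, and mm9 are named in the submitters' processing notes. Read filters and removal of PCR duplicates are not given in the sources used here, and PCR copies of 1 molecule may count more than once. From these counts, sites within 10 kb of the bait were left out. Reads were summed over 100 kb windows of chromosome 6, and captured sites (at least 1 read) over 1 Mb windows of chromosome 6 farther than 1 Mb and 500 kb windows elsewhere (mean of at least 3). Tests used edgeR 4.0.16 in R 4.3.3 (TMM, robust quasi-likelihood, all 9 Pparg libraries in 5 groups, Benjamini-Hochberg adjustment), in which log2 differences compare the mean of days 1 and 2 with day 0. The B cell library is assumed to vary like the others. CPM come from edgeR. Shares were compared by exact permutation tests over all arrangements, with p as 2 times the smaller tail (NumPy 2.4.6). The Spearman correlation came from SciPy 1.17.1. The fits were tested on simulated data. Alternatives were DESeq2 1.42.0, limma 3.58.1 on log2 odds, a replicate block, other filters, windows and bait zones, thinning, and leaving out each library.

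Named windows are up to 4 per test and direction by smallest p among those passing without overlap (otherwise the 2 with the smallest p), described one by one where they adjoin, the 8 most captured or read, and the windows within 1 Mb. The windows at 95, 100, 108, 112 and 130 Mb, and those called by DESeq2, were chosen after their values were seen. The compared groups and the lists were chosen with earlier results of these data known. Same-numbered libraries deviated together in the 1 Mb windows (correlation 0.403 to 0.468) less in windows of other chromosomes (0.101 to 0.152) and in the 100 kb windows (0.0220 to 0.0536), and no label ties a number to a shared batch. The main test had no replicate block, and the blocked counts stand beside those of the 1 Mb windows. No mm9 annotation was used here, so genes in windows are not given. The neighbours of Pparg on its high-coordinate side are not reported here.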

Additional observations from a re-analysis of the deposited data

How the results depend on the processing

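The number of 1 Mb windows that passed depended on the tool and on single libraries. For days 1 and 2 together, day 1 and day 2 the counts were 23, 20 and 15 in edgeR and 0, 3 and 0 in DESeq2. Reads in place of captured sites gave 5, 6 and 3, of which the 3 of day 2 were lower. With the replicate number as a block (replicate block) they were 38, 32 and 37, with 19 higher and 19 lower for days 1 and 2 together. Limma on log2 odds, an alternative chosen after seeing the data, gave 16, 11 and 11. Thinning gave 30, 18 and 26. Leaving out 1 library gave 7 to 29, 3 to 21 and 0 to 16. No filter, at least 2 reads per captured site, and days 0, 1 and 2 alone stayed within 1.5 times the count. All 17 higher and 6 lower windows passed with the block, 12 and 4 with limma on log2 odds. The day 2 log2 change at 96 to 97 Mb was 1.00 in captured sites and -0.11 in reads. The causes were not tested.

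For reads in 100 kb windows, the count of 0 for days 1 and 2 together was 10 in DESeq2 and 1 with days 0, 1 and 2 alone or with captured sites, and 0 to 1 with 1 library left out. On day 1 the count of 0 was 6 in DESeq2, 1 with captured sites and 0 to 2 with 1 library left out. On day 2 the count of 1 was 6 in DESeq2, 0 without the filter, in 200 kb windows, with captured sites or thinned, and 0 to 1 with 1 library left out. Between day 2 and day 1 it was 0, and 1 in DESeq2. On other chromosomes the day 2 count of 0 was 1 (lower) in 1 Mb windows.

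The difference in the share within 1 Mb was 0.739 percentage points, 2.35 with the sites within 100 kb of the bait left out, 1.33 with captured sites, 1.68 within replicate number 1 and -0.206 within number 2, and -0.498 to 1.98 with 1 library left out. The difference in captured sites on other chromosomes was -1863, and 158 within number 1. Precision is lowest in the libraries numbered 2, which captured fewer sites on other chromosomes at equal depth too, 3740 in day 1 replicate 2.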
